A study of Arabidopsis thaliana with 4 samples.

Results

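Transcript levels of 10 root hair genes of Arabidopsis thaliana were compared between wild-type and bdt1 seedlings. The genes were taken by their gene identifiers from the 32548 genes of the deposited table. They are the transcription factor genes RHD6, RSL1, RSL2 and RSL4, the epidermal fate genes GL2 and CPC, the oxidase gene RHD2, and the cell wall genes LRX1, COBL9 and PRP3. RNA came from whole seedlings aged 10 days, grown on plates of Murashige and Skoog medium with 16 h of light and 8 h of dark, and paired reads of 150 bases were made. The design text describes 2 biological replicates of each genotype. One group was the wild type of ecotype Col-0. The other was bdt1-/- in the Col-0 background, whose source label reads btl1-/-. The nature of the bdt1 allele is not given in the sources used here.

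Root hairs are tubular outgrowths of single cells of the root epidermis. In each developing epidermal cell a set of MYB and basic helix-loop-helix (bHLH) proteins either switches GL2 on, and the cell stays hairless, or leaves it off, and the cell can form a hair. Small MYB proteins such as CPC move between neighbouring cells and oppose GL2. In future hair cells RHD6 and its relatives start a cascade of bHLH factors that ends in genes for wall proteins, wall enzymes and the oxidase that makes reactive oxygen at the growing tip.

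The deposited values are normalised read counts that the authors brought to 1 shared library size. Whole reads could be recovered from them, with totals of 22914893 to 27435729 per library. Of all genes, 23256 had a mean normalised count of at least 1 and were tested with limma on log2(normalised count + 1), and a call is an adjusted p under 0.05. The name BDT1 is tied by background knowledge, not by the annotation, to AT4G11560, whose normalised count was 1135 and 1117 in the Col-0 libraries and 313 and 324 in the bdt1 libraries (limma's adjusted p = 3.9e-05). The counts of AT4G11560 were thus lower in both libraries labelled bdt1. All 10 root hair genes passed the filter on low counts. With 2 libraries a genotype, p-values set a difference against a spread estimated from these few samples. In limma that estimate also draws on all tested genes. A change in the number of hair cells and a change in RNA per cell cannot be told apart in whole seedlings.

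None of the 10 root hair genes was called in either direction by limma (adjusted p from 0.30 for PRP3 to 0.97 for CPC), edgeR or DESeq2. Over all tested genes limma called 2.06% and edgeR 2.57%, and the limma calls split into 1.2% higher and 0.856% lower in bdt1. The log2 fold change, bdt1 minus Col-0, was positive for 9 of the 10 and negative for GL2, with a median of 0.16. With quantile normalisation 7 were positive and the median was 0.039. Over all tested genes 50.7% were positive and the median was 0.00. The count of 9 rested on Col-0 replicate 2, without which 5 of 10 were positive at a median of 0.044, and the median was 0.29 without Col-0 replicate 1. Both bdt1 libraries lay above both Col-0 libraries for RSL1, RSL2 and PRP3, and below them for GL2. Groups that do not overlap were found in 4 of these 10 genes and in 48.9% of tested genes, 25.2% with bdt1 higher and 23.7% with bdt1 lower.

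**Figure D1:**
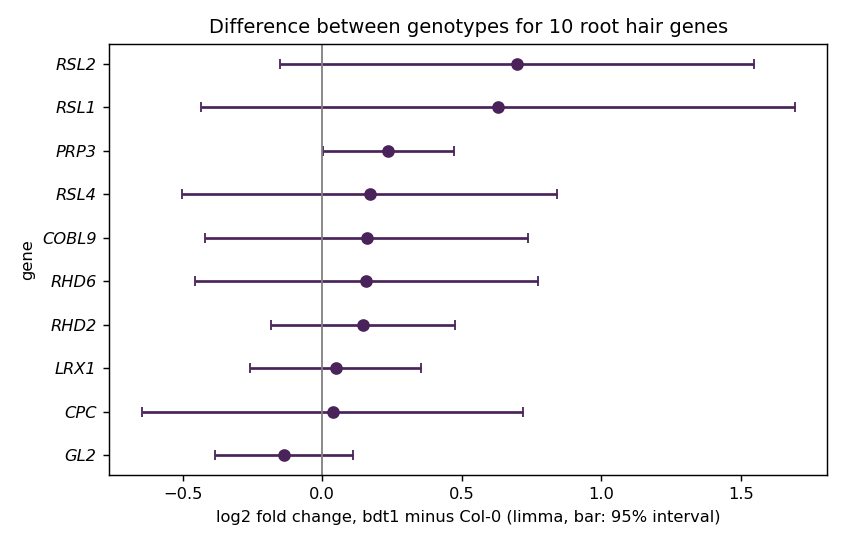
Log2 fold change, bdt1 minus Col-0, of each root hair gene from limma with its 95% interval (x axis), genes on the y axis in order of the value. The intervals of RSL1 and RSL2 are the widest, and that of PRP3 alone lies above 0, by 0.003, before adjustment over genes.

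RHD6 and RSL1 are close relatives that act together, and without both no root hairs form. RHD6 (AT1G66470) occupies 24795214 to 24797015 of chromosome 1 and RSL1 (AT5G37800) 15036066 to 15037884 of chromosome 5, both on the plus strand of TAIR10.1. The best match of the RHD6 transcript elsewhere in the genome was RSL1, with 86.1% identity over 115 bases. Their upstream regions also hold the same words. In the 250 bases before the annotated start, 3 identical runs of at least 11 bases, 41 bases in all, stood in the same order in both genes. The longest run, of 15 bases, exceeded the 10 bases found at most in any of the other pairs among the 45 pairs of these 10 windows. The windows are shown because they tie this pair together apart from its transcript levels. They were read 5′ to 3′ from the RefSeq TAIR10.1 genome at chr1:24794964-24795213 and chr5:15035816-15036065, both on the plus strand, with the shared runs in capitals.
RHD6: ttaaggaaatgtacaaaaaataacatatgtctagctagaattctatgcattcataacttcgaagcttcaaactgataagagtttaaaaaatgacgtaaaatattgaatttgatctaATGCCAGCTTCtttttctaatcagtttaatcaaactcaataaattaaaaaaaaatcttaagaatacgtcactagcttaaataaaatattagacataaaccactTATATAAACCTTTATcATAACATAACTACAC
RSL1: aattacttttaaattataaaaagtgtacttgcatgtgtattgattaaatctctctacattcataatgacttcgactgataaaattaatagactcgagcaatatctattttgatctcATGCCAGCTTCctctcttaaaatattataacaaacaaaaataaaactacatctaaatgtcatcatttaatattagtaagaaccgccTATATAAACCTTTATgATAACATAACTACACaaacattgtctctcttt

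The normalised count of RHD6 was 55.8 and 38.3 in the Col-0 libraries, replicate 1 first, and 50.6 and 52.9 in the bdt1 libraries. Both bdt1 libraries fell between the 2 Col-0 libraries, which differed 1.46-fold. RHD6 thus had a log2 fold change of 0.16 (SE 0.27, 95% interval -0.46 to 0.77, limma's adjusted p = 0.82). It was -0.11 without Col-0 replicate 2. RSL1 was the lowest of the 10 genes, with 6 and 8 reads in the Col-0 libraries and 10 and 12 in the bdt1 libraries. Its normalised counts were 6.36 and 7.35 in Col-0 and 10.6 and 11.8 in bdt1. The bdt1 libraries were the higher ones without overlap, at a log2 fold change of 0.63 (SE 0.47, 95% interval -0.43 to 1.69, limma's adjusted p = 0.55). The exact Poisson 95% interval, for counting error alone, ran from 2.2 to 13.1 reads around the 6 reads of Col-0 replicate 1 and from 6.2 to 21.0 around the 12 reads of bdt1 replicate 2, so the 2 intervals overlapped.

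RSL2 and RSL4 are the bHLH factors that act after RHD6 and RSL1 and set how long a hair grows. RSL2 (AT4G33880) occupies 16239363 to 16241169 of chromosome 4, minus strand, and RSL4 (AT1G27740) 9654475 to 9656089 of chromosome 1, plus strand. RSL2 had normalised counts of 16.9 and 16.5 in the Col-0 libraries, replicate 1 first, and 35.6 and 21.5 in the bdt1 libraries. Both bdt1 libraries were higher, and they differed from each other 1.66-fold. The log2 fold change of 0.70 was the largest of the 10 (SE 0.37, 95% interval -0.15 to 1.55, limma's adjusted p = 0.40), and it was 0.34 without bdt1 replicate 1 and 1.05 without bdt1 replicate 2. For RSL4 the counts were 29.6 and 28.4 in Col-0 and 29.6 and 36.2 in bdt1. 3 of the 4 libraries held nearly the same level and bdt1 replicate 2 stood above them. Its log2 fold change was 0.17 (SE 0.29, 95% interval -0.50 to 0.84, limma's adjusted p = 0.82), and 0.03 without bdt1 replicate 2.

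GL2 encodes a homeodomain protein that keeps epidermal cells hairless and is also needed in leaf trichomes. The gene (AT1G79840) occupies 30036956 to 30041440 of chromosome 1, plus strand. Its exons share 155 bases with the noncoding gene AT1G09927 on the same strand, which is listed at 0 in all 4 libraries, so reads from these bases may be shared or missing. Its normalised count was 297 and 325 in the Col-0 libraries, replicate 1 first, and 276 and 289.8 in the bdt1 libraries. GL2 was the one gene of the 10 with a negative log2 fold change, -0.14 (SE 0.11, 95% interval -0.38 to 0.11, limma's adjusted p = 0.58). The groups did not overlap, but the nearest libraries of the 2 genotypes, at 289.8 and 297, were closer than the Col-0 libraries were to each other. Without Col-0 replicate 2 the value of GL2 was -0.07.

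CPC encodes a short MYB protein without an activation domain that promotes hair fate. The gene (AT2G46410) occupies 19049021 to 19050369 of chromosome 2, minus strand. The counts were 52.6 and 32.7 in Col-0 and 43.2 and 42.1 in bdt1. The 2 Col-0 libraries, 1.61-fold apart, enclosed both bdt1 libraries. CPC had a log2 fold change of 0.04 (SE 0.30, 95% interval -0.65 to 0.72, limma's adjusted p = 0.97), with 50 and 36 reads behind the Col-0 values. It was -0.12 with quantile normalisation and -0.30 without Col-0 replicate 2.

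RHD2, also named RBOHC, encodes the NADPH oxidase whose reactive oxygen opens calcium channels at the hair tip. The gene (AT5G51060) occupies 20757199 to 20762461 of chromosome 5, minus strand. The normalised count was 257 and 274 in the Col-0 libraries, replicate 1 first, and 256 and 338 in the bdt1 libraries. One bdt1 library stood with the wild type and the other above all. The log2 fold change was 0.15 (SE 0.14, limma's adjusted p = 0.66), with a 95% interval from -0.18 to 0.48, or 0.88-fold to 1.39-fold. It was -0.05 without bdt1 replicate 2.

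LRX1 encodes a chimeric protein of leucine-rich repeats and extensin that sits in the hair wall, and PRP3 encodes a proline-rich wall protein. LRX1 (AT1G12040) occupies 4069992 to 4072681 of chromosome 1 and PRP3 (AT3G62680) 23182722 to 23184042 of chromosome 3, both on the plus strand. A root hair element, the motif that RSL4-type factors are known to bind, was searched for by its published consensus on both strands of the 250 bases before each start. It was found in these 2 of the 10 genes, and in 0.754% of the 27443 protein-coding genes searched alike. Both windows are shown for that reason, from the RefSeq TAIR10.1 genome at chr1:4069742-4069991 and chr3:23182472-23182721, plus strand, 5′ to 3′, with the match in capitals. Both matches read as the element on the opposite strand, and they end 77 and 150 bases before the start.
LRX1: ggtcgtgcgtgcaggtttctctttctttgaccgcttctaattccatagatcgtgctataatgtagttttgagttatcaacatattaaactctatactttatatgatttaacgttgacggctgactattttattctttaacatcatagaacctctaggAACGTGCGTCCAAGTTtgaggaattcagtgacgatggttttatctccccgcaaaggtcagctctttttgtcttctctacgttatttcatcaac
PRP3: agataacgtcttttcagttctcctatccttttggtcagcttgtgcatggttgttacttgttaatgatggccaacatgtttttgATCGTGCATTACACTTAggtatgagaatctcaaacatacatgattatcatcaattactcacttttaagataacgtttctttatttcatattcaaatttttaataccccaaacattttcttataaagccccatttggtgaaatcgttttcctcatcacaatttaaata

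The shorter motif CANNTG, palindromic and thus the same on both strands, was present in 5 of the 10 windows (RHD6, RSL1, GL2, RHD2 and PRP3) and in 55.3% of all. The words TAAATGTA and TAAATGCA, forms of the L1 box that GL2-type proteins bind, were in none of the 10 on either strand and in 3.0% and 1.57% of all windows. The PRP3 window holds a CANNTG that does not overlap its root hair element. These matches describe letters and were not tested as sites.

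The normalised count of LRX1 was 218 and 189 in the Col-0 libraries, replicate 1 first, and 201 and 218 in the bdt1 libraries. The genotypes overlapped. Its log2 fold change of 0.05 (SE 0.13, limma's adjusted p = 0.89) had a 95% interval from -0.26 to 0.35, or 0.84-fold to 1.28-fold. PRP3 had 333 and 351 in Col-0, and 380.4 and 427 in bdt1, so that both bdt1 libraries were higher. Its log2 fold change was 0.24 (SE 0.10, 95% interval 0.00 to 0.47), a ratio of 1.18, and 0.15 without bdt1 replicate 2 on the log2 scale. PRP3 had the smallest p of the 10 genes (limma unadjusted p = 0.047, adjusted p = 0.30), and was the one gene of the 10 with an unadjusted p under 0.05. Of all tested genes 16.4% had one, 8.61% with bdt1 higher. COBL9 (AT5G49270), which encodes a glycosylphosphatidylinositol-anchored protein of the hair wall, occupies 19971884 to 19974530 of chromosome 5, minus strand. It had 95.8 and 59.1 in Col-0, and 86.3 and 82.2 in bdt1. As for RHD6 and CPC, the bdt1 libraries lay between the Col-0 libraries, which differed 1.62-fold. The log2 fold change of COBL9 was 0.16 (SE 0.25, 95% interval -0.42 to 0.74, limma's adjusted p = 0.80), and -0.18 without Col-0 replicate 2.

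**Figure D2:**
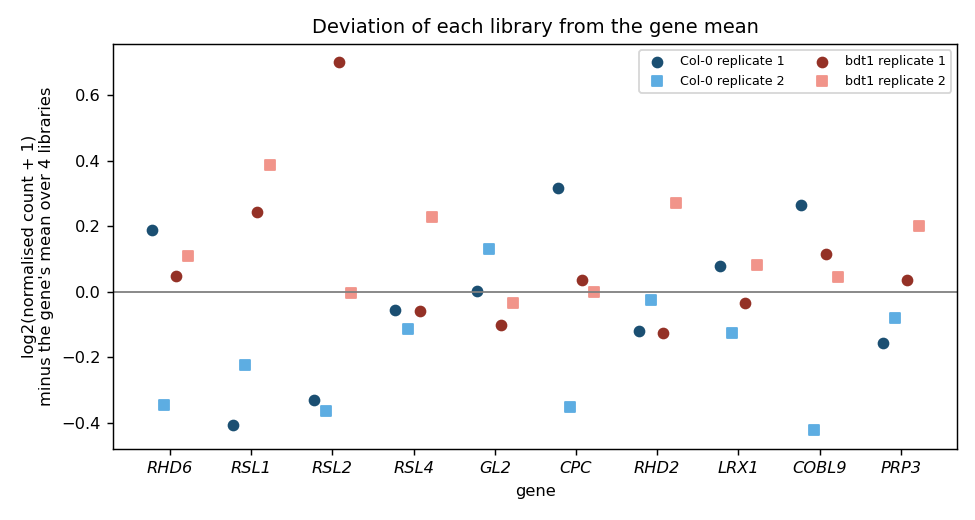
Deviation of each library from the gene's mean over the 4 libraries, in log2(normalised count + 1) (y axis), for each root hair gene (x axis), points coloured by library. Col-0 replicate 2 is the lowest library for 6 of the 10 genes and bdt1 replicate 2 the highest for 5.

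The spread within a genotype was uneven across the genes. Col-0 replicate 2 held the lowest value of 6 of the 10, namely RHD6, RSL2, RSL4, CPC, LRX1 and COBL9. It also held the highest value of GL2. Col-0 replicate 1 was highest for RHD6, CPC and COBL9. In bdt1 these 3 genes differed between libraries by 1.03-fold to 1.05-fold. The genes with the widest spread in bdt1 were RSL2, at 1.66-fold, and RHD2, at 1.32-fold. The centred log2 values averaged over the 10 genes were -0.02 and -0.19 in the Col-0 libraries, replicate 1 first, and 0.09 and 0.13 in the bdt1 libraries. Of 16040 other genes with a mean of at least 100, the nearest to this average profile over the 4 libraries was AT4G11320, a papain family cysteine protease, at a Euclidean distance of 0.02. Next were AT1G14230, AT3G49100, AT5G66250 and AT5G50340, all at 0.03. Over 4 libraries, with so many candidates, this nearness is a description only.

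Per kb of the longest annotated transcript, the mean level over the 4 libraries was highest for PRP3, at 305 normalised counts per kb. GL2 followed at 103, RHD2 at 85.6, LRX1 at 76.8, CPC at 55.9, COBL9 at 35.8, RHD6 at 34.6, RSL4 at 23.1, RSL2 at 16.4 and RSL1 at 6.6. Neighbours whose libraries overlapped were GL2 and RHD2, RHD2 and LRX1, COBL9 and RHD6, RHD6 and RSL4, and RSL4 and RSL2, which makes 5 of 9 neighbouring pairs. PRP3, LRX1, CPC and RSL2 each stood apart from the next lower gene in every library. The gap was narrow for LRX1, at 70.2 against 69.0 for CPC, and for CPC, at 42.9 against 42.4 for COBL9. The 4 bHLH genes were thus at the low end and the wall gene PRP3 at the top. The libraries cannot show which cells hold the RNA.

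**Figure D3:**
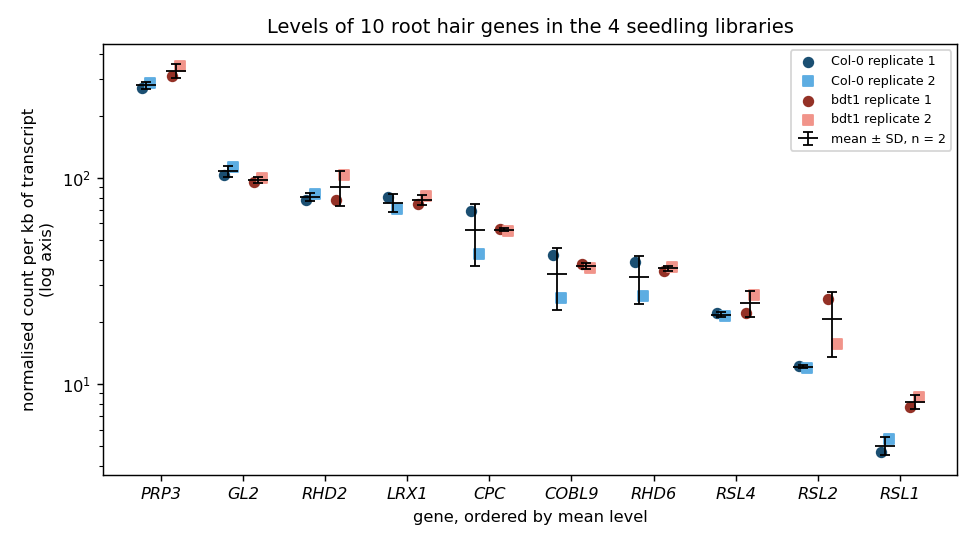
Normalised count per kb of transcript (y axis, log scale) of the 10 root hair genes (x axis, ordered by mean), 1 point per library, with the mean and SD of each genotype (n = 2). PRP3 stands highest at a mean of 305 and RSL1 lowest at 6.6, and the 2 genotypes lie close together beside that range.

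None of the transcripts had a match elsewhere in the genome at 95% identity or more longer than 60 bases, against reads of 150 bases. Of the paralogs in the files, the NADPH oxidase genes RBOHD and RBOHF, active in defence and in the shoot, were far above RHD2 per length, at 677 and 199 normalised counts per kb. RBOHG (AT4G25090) was the best match of the RHD2 transcript elsewhere in the genome, with 76.1% identity over 527 bases. It stood at 86.5 normalised counts per kb, beside 85.6 for RHD2. Its log2 fold change was 0.38 (SE 0.11, limma's adjusted p = 0.14), with both bdt1 libraries above both Col-0 libraries. RBOHH and RBOHJ, known for pollen tubes, were listed at 0 in all 4 libraries. None of the 7 tested RBOH paralogs was called by limma, edgeR or DESeq2, beside 2.06% of tested genes with limma. Both bdt1 libraries lay above both Col-0 libraries in 3 of the 7 and below them in 1, beside 25.2% and 23.7% of tested genes. RBOHB, at 161 and 161 in Col-0 and 252 and 223 in bdt1, had a log2 fold change of 0.56 (SE 0.13, limma's adjusted p = 0.078), and RBOHA one of -0.48 (SE 0.26, adjusted p = 0.41). RBOHA was at -0.20 without Col-0 replicate 1 and at -0.76 without Col-0 replicate 2. Among 9 tested relatives of LRX1, COBL9 and PRP3 limma called none, beside 2.06% of tested genes. The log2 fold change was positive in 5 of these 9 relatives, beside 50.7% of tested genes, at a median of 0.00. The most abundant were PRP4, at 4837 normalised counts per kb with a log2 fold change of 0.05 (SE 0.07), and COB, a regulator of cellulose orientation, at 1930.4 with a log2 fold change of -0.0046 (SE 0.05), positive with quantile normalisation. The largest differences there were -0.49 for COBL8 (SE 0.25, adjusted p = 0.38) and -0.43 for LRX3 (SE 0.11, adjusted p = 0.092), a gene for a wall protein of the shoot and root. LRX3 was called by DESeq2 (adjusted p = 0.016) and not by edgeR (0.066). With 1 library left out COBL8 ran from -0.74 to -0.24 and LRX3 from -0.61 to -0.24, in both cases without Col-0 replicate 1 and without Col-0 replicate 2.

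Of 14 other genes of epidermal fate, all tested, limma called 1 lower in bdt1 and none higher, beside 0.856% and 1.2% of tested genes. The called gene was MYC1 (AT4G00480), a bHLH partner of the MYB proteins that switch on GL2. Positive values were found in 5 of the 14, beside 50.7% of tested genes, and the median log2 fold change was -0.15. Both bdt1 libraries lay below both Col-0 libraries in 6 of the 14 and above them in 3, beside 23.7% and 25.2% of tested genes. TTG2 had the lowest value of the list, -0.53 (SE 0.19, limma's adjusted p = 0.23), and GL3 had -0.40 (SE 0.21, adjusted p = 0.40). MYC1 had normalised counts of 446 and 498 in Col-0 and 339 and 321 in bdt1, a log2 fold change of -0.51 (SE 0.10, limma's adjusted p = 0.041). That call was lost with DESeq2 (adjusted p = 0.065), with a pseudocount of 0.1 (0.057), without the trend (0.25) and without Col-0 replicate 2 (0.11). Without either bdt1 replicate limma called no gene at all. The log2 fold change of MYC1 stayed between -0.59 and -0.44 under the 14 alternatives read for single genes. The edgeR fits with 1 library left out were not among them. TRY, a small MYB gene related to CPC, was at 33.8 and 34.9 in Col-0 and 55.9 and 66.6 in bdt1, a log2 fold change of 0.81 (SE 0.25, adjusted p = 0.16). ZFP5, a zinc finger gene that acts upstream of CPC, had 0.88 (SE 0.35, adjusted p = 0.26). TTG1 and SCM, the most abundant per length, had -0.10 (SE 0.07, adjusted p = 0.53) and -0.22 (SE 0.07, adjusted p = 0.19).

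Of 4 tested RSL and LRL bHLH genes outside the 10, none was called and the log2 fold change was positive in 3. Over all tested genes limma called 2.06%, and 50.7% were positive. AT5G43175, left out by the filter on low counts, had at most 1 read per library. LRL3 had 0.66 (SE 0.30, limma's adjusted p = 0.33) and AT2G14760 had 0.52 (SE 0.89, adjusted p = 0.82). LRL3 was at 0.99 and 0.32, and AT2G14760 at 1.52 and -0.47, without Col-0 replicate 1 and 2. LRL1 and LRL2, the most abundant, had -0.10 (SE 0.10) and 0.12 (SE 0.13). Of 18 genes of tip growth signalling and transport, limma called CAP1 (AT5G61350) higher in bdt1 and none lower. Over all tested genes 1.2% were called higher and 0.856% lower. The log2 fold change was positive in 11 of the 18, beside 50.7% of tested genes, at a median of 0.02. CAP1, also named ERULUS, encodes a receptor-like kinase that shapes the calcium gradient of growing hairs. Its normalised count was 53.8 and 42.0 in Col-0 and 103 and 99.8 in bdt1, with both bdt1 libraries well above both Col-0 libraries. The log2 fold change was 1.08 (SE 0.22, limma's adjusted p = 0.049), close to the threshold. That call was lost with quantile normalisation (adjusted p = 0.063), with no filter (0.064), with a pseudocount of 0.1 (0.064), without the trend (0.20), with DESeq2 (0.089) and without Col-0 replicate 2 (0.11). CAP1 kept a log2 fold change of 0.90 to 1.25 under the 14 alternatives read for single genes. These included the limma fits without a bdt1 replicate, in which CAP1 was not called either. ARK1, a kinesin gene, had 0.39 (SE 0.22, adjusted p = 0.42). The receptor kinase gene FER and RHD3, for membrane traffic, were the most abundant, with -0.09 (SE 0.06) and -0.01 (SE 0.05), the latter positive with quantile normalisation.

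Among 27 other root hair genes, for wall proteins and wall enzymes and for RHS proteins, some of which are transporters or kinases, none was called. Over all tested genes limma called 2.06%. The log2 fold change was positive in 25 of the 27, at a median of 0.20, beside 50.7% of all tested genes. Both bdt1 libraries lay above both Col-0 libraries in 19 of the 27 and below them in 1, beside 25.2% and 23.7% of tested genes. From 24 to 25 of the 27 were positive with any 1 library left out, and 23 with quantile normalisation. The largest differences were those of RHS4, at 6.40 and 10.2 in Col-0 and 17.98 and 24.5 in bdt1 (log2 fold change 1.28, SE 0.44, limma's adjusted p = 0.20), and of RHS16, at 70.7 and 62.3 in Col-0 and 107 and 101 in bdt1 (0.64, SE 0.19, adjusted p = 0.15). The most abundant per length were CSLD3, for a glucan synthase needed at the hair tip, and XTH14, a xyloglucan enzyme gene, with 0.06 (SE 0.06) and 0.12 (SE 0.11). Many of these genes are active in the same cells, so they are not independent of each other. The list was also chosen with earlier results of these data known.

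**Figure D4:**
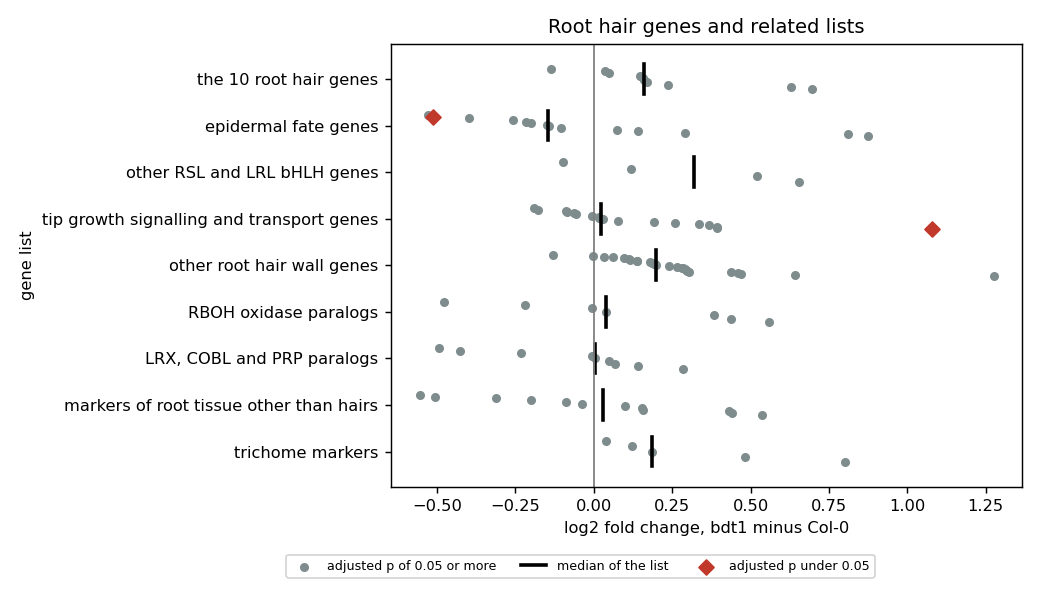
Log2 fold change, bdt1 minus Col-0 (x axis), of each tested gene in the 10 root hair genes and in 8 related lists (y axis), with a black bar at the median of a list. Red diamonds mark the 2 called genes, MYC1 and CAP1, and the wall list lies mostly to the right of 0 with a median of 0.20. The lists were chosen with earlier results of these data known.

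Of 12 markers of root tissue other than hairs, all detected, none was called, beside 2.06% of tested genes with limma. The log2 fold change was positive in 6 of these 12 markers, beside 50.7% of tested genes, at a median of 0.03. Their summed normalised count was 3012 and 2685 in the Col-0 libraries, replicate 1 first, and 2855 and 2791 in the bdt1 libraries, so the genotypes overlapped. CASP1 of the endodermis and SCR, the most abundant per length, had 0.16 (SE 0.13, limma's adjusted p = 0.61) and -0.04 (SE 0.06, adjusted p = 0.82). ESB1 had 0.54 (SE 0.37, adjusted p = 0.51), and PLT2 of the root tip -0.56 (SE 0.40, adjusted p = 0.54). PLT2 was at -0.02 without Col-0 replicate 1 and at -1.09 without Col-0 replicate 2. Whether the share of root in the seedlings differed was not tested.

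GL2, CPC and their partners also act in leaf trichomes. Of 6 trichome markers MYB5 was listed at 0 in all 4 libraries. The 5 tested had positive log2 fold changes with none called by limma, beside 50.7% positive and 2.06% called over all tested genes. Both bdt1 libraries lay above both Col-0 libraries in 2 of the 5, GIS and TCL1, beside 25.2% of tested genes. In the other 3, GL1, MYB106 and SIM, the genotypes overlapped. GL1 had 0.04 (SE 0.26) and MYB106 0.19 (SE 0.52). The summed normalised count of the list was 298 and 301 in Col-0 and 404 and 361 in bdt1. GIS, a zinc finger gene of trichome initiation, made up most of it and had a log2 fold change of 0.48 (SE 0.13, limma's adjusted p = 0.11). TCL1 had 0.80 (SE 0.48, adjusted p = 0.46) and SIM 0.12 (SE 0.24, adjusted p = 0.85). TCL1 was at 0.39 without Col-0 replicate 1 and at 1.21 without Col-0 replicate 2. The part of trichomes in the values of GL2 and CPC was not tested.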

How the data were processed

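The labels' sample titles gave genotype and replicate. Per the submitters' processing notes, HISAT2 2.2.0, edgeR and TAIR10 were used. Not given in the sources used here: counter, annotation version, strandedness. The deposited signal is a normalised count with the form of edgeR pseudo-counts, adjusted by the authors to 1 library size. Undoing that adjustment, with a fitted dispersion of 0.00544, returned whole counts for 100% of values within 1e-06 reads.

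Genes with a mean of at least 1 were tested with limma 3.58.1 (R 4.3.3) on log2(value + 1) with a trend, Benjamini-Hochberg over all genes, so folds of low genes are understated. edgeR 4.0.16 and DESeq2 1.42.0 ran on recovered counts as alternatives. The fits were tested on simulated data. Positions, lengths and sequences came from RefSeq TAIR10.1, and matches from blastn 2.17.0.

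The members and lists were chosen with earlier results of these data known. Named genes were all members, and per list the called genes, the 2 highest per kb and the 2 with the largest log2 change, plus the 5 nearest profiles. GL1, MYB106, TTG2, GL3 and RBOHG were named outside that rule and were not read under the alternatives. Intervals of reads cover counting error only. A further gene that overlaps GL2 is not reported here.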

Additional observations from a re-analysis of the deposited data

How the results depend on the processing

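None of the 10 root hair genes was called under any alternative. Of their 139 alternative values 130 kept sign and side of the threshold, with the edgeR fits that left 1 library out not counted. Quantile normalisation turned RSL4 (-0.014), CPC (-0.12), RHD3 (0.035), RBOHF (0.022), COB (0.040) and SIM (-0.0034), and DESeq2 turned CPC (-0.0063). With 1 library left out in turn the log2 fold change ran from -0.11 to 0.43 for RHD6, -0.30 to 0.37 for CPC, -0.051 to 0.35 for RHD2, -0.054 to 0.15 for LRX1 and -0.18 to 0.50 for COBL9. It also crossed 0 for AT2G14760 (-0.47 to 1.52), RHD3 (-0.049 to 0.037), RBOHD (-0.45 to 0.0046), RBOHF (-0.058 to 0.046), COB (-0.039 to 0.030), PRP4 (-0.047 to 0.14), SCR (-0.089 to 0.013) and SIM (-0.098 to 0.34). Members with a positive value numbered 5 to 9. Genes called higher and lower over the whole table ran from 0 to 540 and 0 to 776 with limma when 1 library was left out, both 0 without either bdt1 replicate. With edgeR, added after seeing the data, they were 870 and 1245 without Col-0 replicate 1, 1225 and 1273 without Col-0 replicate 2, 289 and 226 without bdt1 replicate 1, and 301 and 334 without bdt1 replicate 2, with 5 positive members without Col-0 replicate 2. The lone sample left is assumed to vary like the other group. A pseudocount of 0.1 gave 194 and 123, and no trend 42 and 6.

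The labels do not say that replicate numbers pair the samples. Same-numbered samples deviated together with a correlation of 0.14 over 16044 genes, and the replicate block gave 901 and 917 calls, none of them a member. LRX3 was called with DESeq2, the block and without Col-0 replicate 1, RBOHB and GIS with the block, and RBOHD without Col-0 replicate 1. RSL1 had no value with a filter at a mean of 10. The causes were not tested. RSL1, RSL2 and RSL4 rest on 6 to 37 reads per library; the part of depth in their values was not tested.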
